A study of Glycine max with 2 samples.

Results

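The genes described here encode enzymes of the anthocyanin pathway, among them those behind flower and pubescence colour in soybean (Glycine max). They were taken as 10 named loci, fixed by their Glyma identifiers and not by any measured value, and they hold 11 of the 78773 gene models and 10 of the 69145 loci in the deposited tables. Each locus had a row in both tables, and Glyma02g05450 alone had more than 1 model. RNA-Seq was made from young shoot tips of greenhouse plants about 4 weeks old, with 1 library for Clark standard (CS), the wild-type line with trichomes, and 1 for Clark glabrous (CG). CG is an isoline of CS that carries the dominant P1 allele, brought into Clark by backcrossing, and lacks non-glandular trichomes. Both lines thus share the Clark background, except for whatever else came with P1 from the donor. Each library pooled shoot tips of multiple plants. The labels give no alleles at the flower or pubescence colour loci for either line.

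With 1 library per line there is no replicate check, so line and library cannot be told apart and no p-value is given. Values are RPKM as the authors deposited them, that is, alignments scaled to the length of the model and to a total for the library. On this scale levels of different genes can be compared per length, but a read could count on several models. RPKM values were whole multiples of what 1 alignment is worth, with totals of 152791817 alignments in CS and 147273809 in CG. These totals exceed the mapped reads that the study gives, which were higher in CG. Ratios scaled to mapped reads were not computed. The intervals below are exact 95% intervals from the smallest whole numbers of alignments that fit, and they cover counting error only. The tables were not further scaled, and the median log2 CS/CG ratio of the 43753 models that averaged at least 1 RPKM over the libraries was -0.34. Ratios are therefore also given after median-centring, in which CG values were multiplied by 0.788. As a check of green tissue, the chlorophyll a-b binding protein gene Glyma16g28030 had 1093 RPKM in CS against 280.9 in CG. The BURP domain gene Glyma04g35130, reported by the study as separating the lines, had 480.4 RPKM in CS against 0.0105 in CG.

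In the flavonoid pathway, flavanone 3-hydroxylase (F3H) turns flavanones into dihydroflavonols. Flavonoid 3'-hydroxylase (F3'H) adds a hydroxyl group to the B ring and leads to cyanidin-type and quercetin-type compounds, and flavonoid 3',5'-hydroxylase (F3'5'H) leads to the delphinidin type of purple flowers. Dihydroflavonol 4-reductase (DFR) and anthocyanidin synthase (ANS) carry dihydroflavonols on to the coloured anthocyanidins, while anthocyanidin reductase (ANR) diverts these to the flavan-3-ols of proanthocyanidins, known in the soybean seed coat. F3H and F3'H also serve flavonols, which leave the pathway before DFR. In soybean, the T locus of tawny or gray pubescence encodes an F3'H and the W1 locus of purple or white flowers an F3'5'H. RefSeq, on the Williams 82 assembly Glycine_max_v4.0, lists SF3'H1 on chromosome 6, W1 on chromosome 13, F3H on chromosome 2, DFR1 (also W3) on chromosome 14, DFR2 (also W4) on chromosome 17, ANS2 on chromosome 1, ANS3 on chromosome 11 and ANR1 on chromosome 8. These are the chromosomes that the Glyma numbers of the members name, apart from Glyma16g23880 on chromosome 16. RefSeq held 0 of the Glyma identifiers, so the pairing of a locus with an enzyme rests on the list of members.

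The pathway fell into 2 levels in these shoot tips. The F3H and F3'H genes lay between 2.47 and 59.98 RPKM in both lines. Every member for F3'5'H, DFR, ANS and ANR lay below 1 RPKM in both lines, between 0.0346 and 0.720 in CS and between 0.0264 and 0.389 in CG. The 5 models above 1 RPKM were all higher in CG, as were 72.7% of all models that averaged at least 1 RPKM. Of the 6 models below it, 5 had the higher value in CS, against 39.4% of all models that averaged above 0 and below 1. For 5 of these 6 models the counting interval of the ratio included 1. For comparison, 51.2% of all models reached 1 RPKM in both libraries and 12.3% were listed at 0 in both.

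**Figure D1:**
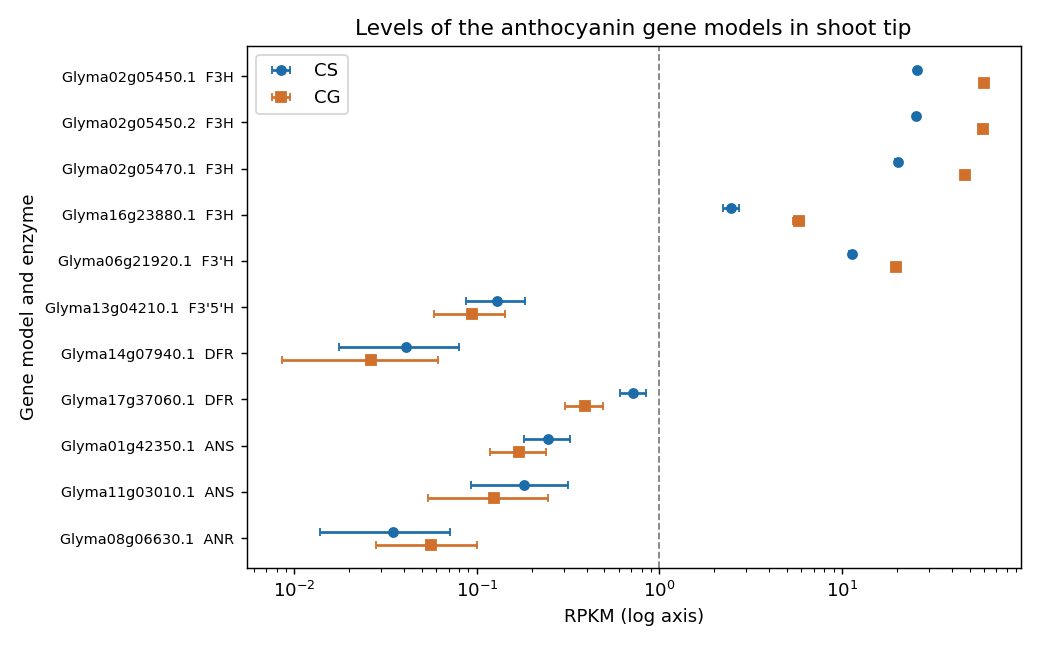
RPKM (log axis) of each of the 11 gene models in CS (blue circles) and CG (orange squares), 1 library each, with bars for the exact 95% counting interval and a dashed line at 1 RPKM. The F3H and F3'H models lie right of the line with CG above CS, and the other 6 models lie left of it in both lines.

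F3H had the highest values of the pathway steps. Glyma02g05450.1 had 25.9 RPKM (interval 25.2 to 26.6) in CS against 59.98 (58.9 to 61.0) in CG, from 5741 and 12818 alignments on a model of 1451 bases. This is a level above that of 94.9% of all models in CS and of 97.7% in CG. The value in CG was 2.32-fold that in CS (2.25 to 2.39), a log2 CS/CG ratio of -1.21 with a pseudocount of 0.1 RPKM. The second model of the locus, Glyma02g05450.2, had 25.6 RPKM in CS against 59.3 in CG, close to the first in each line, and the models of a locus share reads.

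Glyma02g05470 stands close to Glyma02g05450 in the order of Glyma numbers, with Glyma02g05460, listed at 0 in both libraries, between them. It had 20.2 RPKM (19.4 to 21.1) in CS against 47.1 (45.8 to 48.4) in CG, a value 2.33-fold higher in CG (2.21 to 2.45). Glyma16g23880, the third F3H locus, was the weakest, with 2.47 RPKM (2.24 to 2.72) in CS against 5.78 (5.42 to 6.16) in CG, or 2.34-fold higher in CG (2.08 to 2.63). Its level exceeded that of 59.7% of all models in CS and of 70.8% in CG, well below the chromosome 2 copies.

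The 3 F3H loci stood in similar proportions in both lines. Glyma02g05450.1 made up 53.3% of their summed RPKM in CS and 53.1% in CG, Glyma02g05470.1 made up 41.6% and 41.7%, and Glyma16g23880.1 made up 5.09% and 5.12%. Within CS, the level of Glyma02g05450.1 was 10.5-fold that of Glyma16g23880.1 (9.48 to 11.6), and within CG it was 10.4-fold (9.71 to 11.1). The CG/CS ratios of the 3 loci, from 2.32 to 2.34, differed by less than their counting intervals. The authors let a read align to several models, so reads from 1 copy can have counted on the others. How far the equal ratios come from shared reads was not tested, and the copies are not 3 independent measurements. The summed RPKM of the 3 loci, 48.6 in CS and 112.9 in CG, can likewise count a read more than once.

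F3'H, the enzyme of the T locus, was represented by Glyma06g21920 with 11.3 RPKM (10.9 to 11.7) in CS against 19.7 (19.1 to 20.2) in CG, from 3270 and 5489 alignments on 1896 bases. Its level exceeded that of 87.0% of all models in CS and of 91.4% in CG. The value in CG was 1.74-fold that in CS (1.67 to 1.82), a log2 CS/CG ratio of -0.79, short of 2-fold. The interval lies below those of all 4 F3H models, so by counting error alone F3'H differed less between the libraries than F3H did. The level of Glyma02g05450.1 was 2.29-fold that of Glyma06g21920.1 in CS (2.20 to 2.40) and 3.05-fold in CG (2.96 to 3.15).

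F3'5'H, the enzyme of the W1 locus, was weakly represented. Glyma13g04210 had 0.129 RPKM (0.0872 to 0.185) in CS against 0.0939 (0.0581 to 0.143) in CG, from 30 and 21 alignments on 1519 bases. The CS/CG ratio was 1.38 (0.763 to 2.53), so that no difference between the libraries was detectable at this depth. Between the 2 hydroxylases the balance of levels was on the side of F3'H in both lines. The RPKM of Glyma06g21920.1 was 87.3-fold that of Glyma13g04210.1 in CS (61.1 to 129.6) and 209.4-fold in CG (136.9 to 338.6). A model with values as low as those of Glyma13g04210.1 ranked above 28.2% of all models in CS and above 25.3% in CG.

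Of the 2 DFR loci, Glyma17g37060 was the stronger. It had 0.720 RPKM (0.605 to 0.849) in CS against 0.389 (0.305 to 0.490) in CG, from 140 and 73 alignments. The CS/CG ratio was 1.85 (1.38 to 2.49), the opposite direction to F3H and F3'H, and the only interval among the 6 low models that did not include 1. Glyma14g07940 had 0.0407 RPKM (0.0176 to 0.0802) in CS against 0.0264 (0.00857 to 0.0616) in CG, from 8 and 5 alignments, and these intervals overlap widely. Glyma17g37060.1 accounted for 94.6% of the summed DFR level in CS and 93.7% in CG. Its level was 17.7-fold that of Glyma14g07940.1 in CS (8.73 to 41.8) and 14.7-fold in CG (6.04 to 46.8). F3'H and this DFR model stood farther apart in the CG library than in the CS library. Glyma06g21920.1 had 15.7-fold the level of Glyma17g37060.1 in CS (13.2 to 18.7) and 50.5-fold in CG (40.1 to 64.5), with the DFR model below 1 RPKM in both.

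The ANS loci could not be ordered by level. Glyma01g42350 had 0.245 RPKM (0.181 to 0.324) in CS against 0.171 (0.118 to 0.241) in CG, from 49 and 33 alignments, a CS/CG ratio of 1.43 (0.902 to 2.30). Glyma11g03010 had 0.181 RPKM (0.0933 to 0.315) in CS against 0.125 (0.0539 to 0.246) in CG, with 12 and 8 alignments as the smallest numbers that fit, and a ratio of 1.45 (0.543 to 4.08). Glyma01g42350.1 gave 57.6% of the summed ANS level in CS and 57.8% in CG. Its level was 1.36-fold that of Glyma11g03010.1 in CS (0.712 to 2.81), and 1.37-fold in CG (0.621 to 3.44), with intervals that include 1, and as with F3H, shared reads were possible.

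ANR, the branch to proanthocyanidins, was represented by Glyma08g06630 with 0.0346 RPKM (0.0139 to 0.0712) in CS against 0.0564 (0.0281 to 0.101) in CG, from 7 and 11 alignments. The CS/CG ratio of 0.613 (0.202 to 1.73) gave no detectable difference, and this was the 1 low member with the higher value in CG. Glyma08g06640, the next number, was listed at 0 in CS and had 0.0134 RPKM in CG. In RefSeq, ANR2 follows ANR1 on chromosome 8 with 0 protein-coding genes between them, but this table could not be used to pair ANR2 with a Glyma identifier.

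Read by step, the summed levels of the first models were far lower for F3'5'H, DFR, ANS and ANR than for F3H and F3'H in both lines. With the F3H sum of each line set to 100%, F3'H reached 23.2% in CS and 17.4% in CG, while DFR reached 1.56% and 0.368%. ANS stood at 0.876% of the F3H sum in CS and 0.262% in CG, F3'5'H at 0.266% and 0.0832%, and ANR at 0.0711% and 0.0499%. The F3H sum covers 3 loci and can count a read more than once, as can the DFR and ANS sums, so these shares are approximate. The order of these sums was the same in CS and CG (F3H, F3'H, DFR, ANS, F3'5'H, ANR). By single loci, the interval of Glyma17g37060 lay above those of all other weak members in each line, and those of Glyma01g42350, Glyma11g03010 and Glyma13g04210 overlapped. In CG the intervals of Glyma13g04210 and Glyma08g06630, the last pair in that order, overlapped, and in CS they did not.

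**Figure D2:**
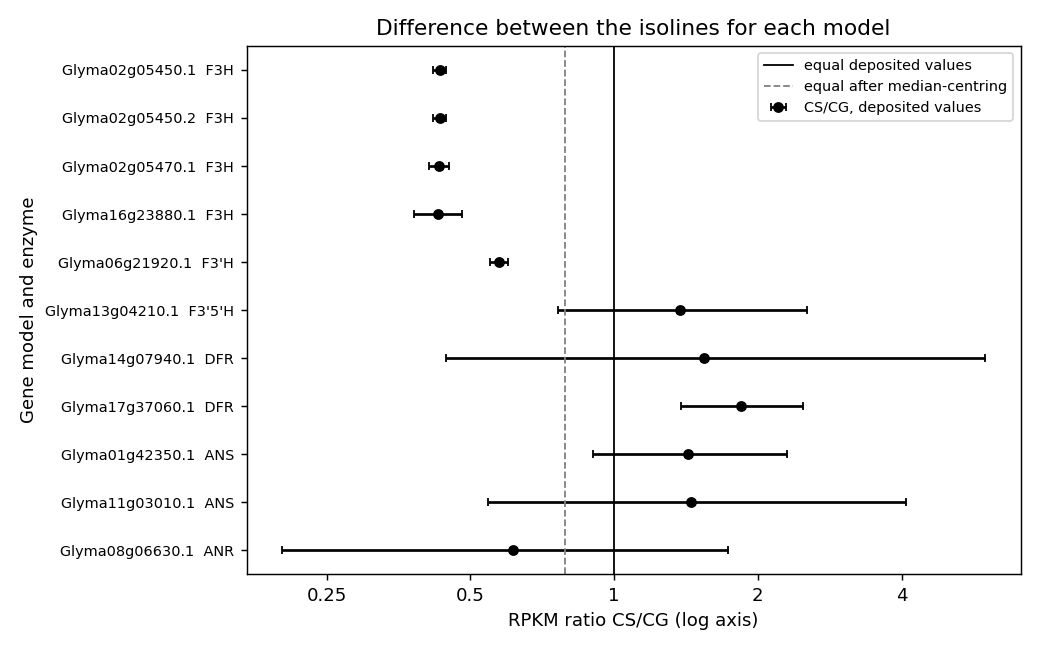
CS/CG ratio of RPKM (log axis) for each of the 11 models, with bars for the exact 95% interval of counting error, a solid line at equal deposited values and a dashed line at 0.788, where the lines are equal after median-centring. The 5 F3H and F3'H models lie left of both lines with short bars, and of the other 6 models only Glyma17g37060.1 has a bar that stays right of both.

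A difference of at least 2-fold, an absolute log2 ratio of 1 or more with a pseudocount of 0.1 RPKM, was counted where a model averaged at least 1 RPKM over both libraries. Of the 11 member models, 5 models of 4 loci passed this filter. All 5 were higher in CG, as were 72.7% of all models that passed. The 4 F3H models, of 3 loci, were at least 2-fold higher in CG, against 13.9% of all models, and 0 member models passed 2-fold toward CS, against 5.57% of all models. The median log2 CS/CG ratio of the 5 models was -1.21, beside the -0.34 of all models. Of the 43753 models, 9.96% had a lower log2 CS/CG ratio than Glyma02g05450.1 and 20.05% had a lower one than Glyma06g21920.1. Since 4 of the 5 models encode 1 enzyme and may share reads, they are not independent counts.

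The 2-fold calls depended on the scaling. After median-centring, 0 of the member models were at least 2-fold higher in CG, and the F3H models were higher in CG by 1.82-fold to 1.84-fold. Glyma06g21920 was then 1.37-fold higher in CG (1.31 to 1.43), so that all 5 models kept their direction. In the other direction, the CS/CG ratio was 2.35 (1.76 to 3.16) for Glyma17g37060 and 1.82 (1.15 to 2.92) for Glyma01g42350.

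For the 6 members below a mean RPKM of 1, 5 had a higher value in CS, whereas 39.4% of the 25370 models that averaged above 0 and below 1 did. After median-centring the share over all such models was 51.3%, and the members remained at 5 of 6. The interval of the ratio included 1 for 5 of the 6 members in the deposited values and for 4 of them after median-centring, and the pair of ANS loci and the pair of DFR loci may share reads, so the directions of single members are not independent.

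**Figure D3:**
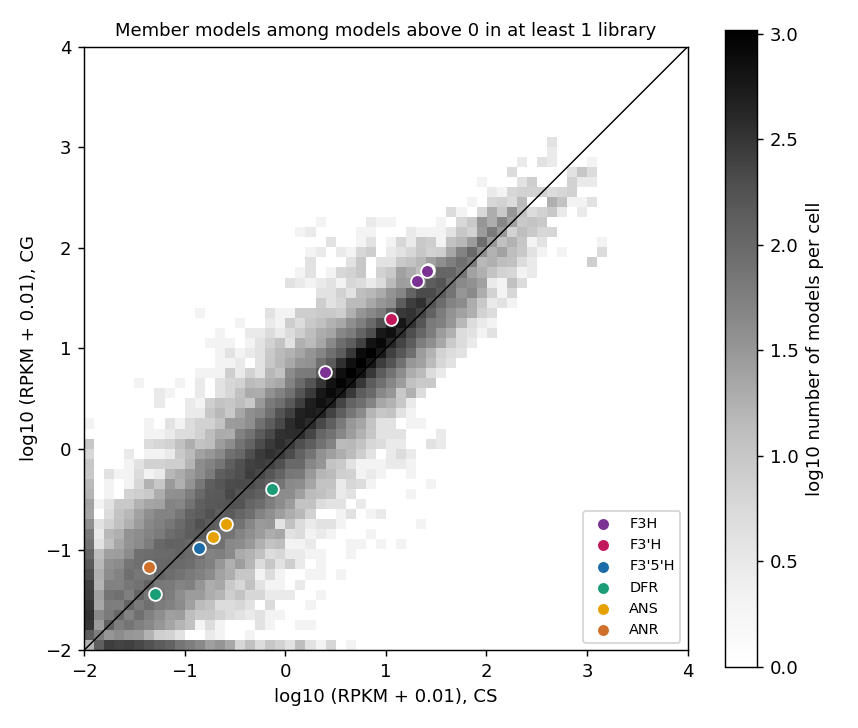
All models above 0 in at least 1 library by log10 (RPKM + 0.01) in CS and in CG, with darker cells holding more models, and the 11 member models in colour by enzyme. The F3H and F3'H models sit above the line of equal values in the upper part of the cloud, and the models of DFR, ANS and F3'5'H sit just below it among the weak models.

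In the deposited values the loci around the members, like all models, leaned toward CG in their median ratio, and single loci went both ways. Of all models that averaged at least 1 RPKM, 72.7% were higher in CG. The 3 loci on each side of each member, in the order of Glyma numbers, made 55 loci, of which 30 averaged at least 1 RPKM. Of these, 5 passed 2-fold toward CG and 2 passed it toward CS, against 13.9% and 5.57% of all models, with a median log2 CS/CG ratio of -0.49 beside -0.34 over all models. After median-centring, an alternative added after the data were seen, the split was 4 toward CG and 4 toward CS. Directly beside the members, 10 loci averaged at least 1 RPKM. Beside the F3H gene Glyma02g05470, Glyma02g05480 had 10.97 RPKM in CS against 42.3 in CG, while Glyma02g05440, on the other side of the pair, had 5.12 in CS and 7.07 in CG. One place beyond Glyma02g05480, Glyma02g05490 had 15.1 RPKM in CS against 6.74 in CG, the opposite direction. Beside the F3H gene Glyma16g23880, Glyma16g23870 had 6.24 RPKM in CS and 7.55 in CG, and farther on the other side Glyma16g23900 had 6.99 in CS against 28.8 in CG, with Glyma16g23910 at 20.9 in CS and 12.8 in CG. Around the F3H and F3'H genes together, 13 neighbouring loci averaged at least 1 RPKM. Of these, 3 passed 2-fold toward CG and 1 passed it toward CS, against 13.9% and 5.57% of all models. Their median log2 CS/CG ratio was -0.46. Beside the F3'H gene, Glyma06g21910 had 0.821 RPKM in CS against 3.53 in CG. Beside the ANS gene Glyma01g42350, Glyma01g42360 had 53.6 RPKM in CS against 8.92 in CG, a strong model next to a weak one, and Glyma01g42340 had 5.27 in CS and 8.08 in CG. Beside the other ANS gene, Glyma11g03020 had 4.496 RPKM in CS and 6.72 in CG. Glyma17g37050, beside the stronger DFR gene, had 19.5 in CS and 32.0 in CG, the opposite direction to that gene. The remaining direct neighbours were Glyma13g04220, with 1.41 RPKM in CS and 0.665 in CG, and Glyma08g06620, with 2.89 in CS and 4.05 in CG. Glyma02g05490, Glyma16g23900 and Glyma16g23910 were chosen after their values were seen. The files do not pair these neighbours with names.

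**Figure D4:**
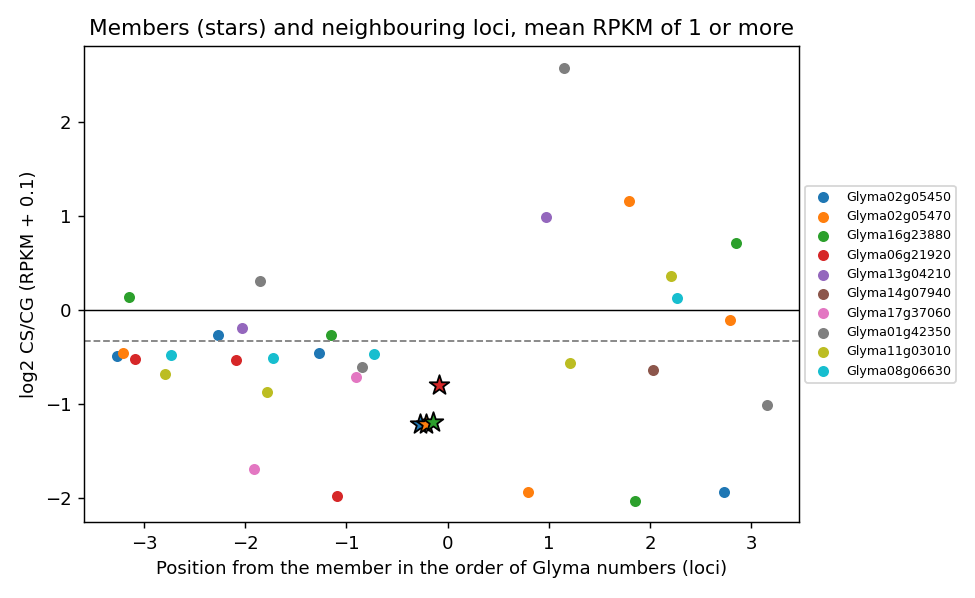
log2 CS/CG ratio (RPKM + 0.1) of the loci up to 3 places before and after each member, by position in the order of Glyma numbers and coloured by member, for loci that averaged at least 1 RPKM, with the first model of each member that passed as a star. The solid line marks equal values and the dashed line the median of all models, -0.34. The stars lie between -1.21 and -0.79, and the neighbours lie on both sides of 0.

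In Arabidopsis, the late anthocyanin genes are switched on by a complex of a MYB protein, a bHLH protein such as GL3 and the WD40 protein TTG1, which also acts in trichome initiation. The study lists 8 soybean loci, with 11 models, as orthologs of TTG1 and GL3, and 8 of the models averaged at least 1 RPKM. Of these, 3 models, all of Glyma15g01960, passed 2-fold toward CG and 0 passed it toward CS, against 13.9% and 5.57% of all models. The median log2 ratio of the 8 was -0.96 beside -0.34 over all models, and after median-centring it was -0.62, with the same 3 models past 2-fold. Since those 3 models belong to 1 locus and share reads, the 8 are not independent counts. Glyma15g01960 is listed for GL2 as well as GL3. Glyma06g14180, listed for TTG1, had 5.02 RPKM in CS against 10.001 in CG, a value 1.99-fold higher in CG (1.85 to 2.14), and Glyma19g28250, also for TTG1, had 15.0 in CS and 15.8 in CG. The 4 TTG1 loci were all higher in CG in the deposited values, as were 72.7% of all models that averaged at least 1 RPKM. For Glyma19g28250 the interval of the CS/CG ratio, 0.877 to 1.03, included 1. After median-centring, Glyma19g28250 was higher in CS, with a CS/CG ratio of 1.21 (1.11 to 1.31). The other TTG1 loci stayed higher in CG. The bHLH gene Glyma08g01810, listed for GL3, had 0.721 in CS and 0.692 in CG. Apart from those of Glyma15g01960, the GL3 models were all higher in CS, and of them only Glyma05g37770.2 averaged at least 1 RPKM. Of all models that averaged above 0 and below 1, 39.4% were higher in CS. Glyma08g01810.1 had a CS/CG ratio of 1.04 (0.873 to 1.24), an interval that includes 1. Glyma05g37770.1 had a CS/CG ratio of 1.25 (1.05 to 1.49), Glyma05g37770.2 had 1.21 (1.03 to 1.42) and Glyma07g07740.1 had 1.30 (0.759 to 2.24). The study also gives tag counts for these loci, from a separate biological sample. In the tag counts, all loci listed for GL3 had the higher value in CG, and the TTG1 loci went both ways. The paper described these orthologs as low and without substantial differences between the lines. In the RNA-Seq values, the TTG1 loci were expressed at 2.68 RPKM or more in both lines, in the same tissue in which the DFR, ANS and ANR members were below 1. The relation between the 2 groups was not tested.

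Elsewhere in flavonoid metabolism, the study's lists of tags that differ between the lines put 1 locus in the flavonoid class, Glyma04g01380, an isoflavone reductase homolog. It was selected by the study for its difference in tags from the same lines, so its direction is no independent evidence. Glyma04g01380.1 had 49.7 RPKM in CS against 15.0 in CG, a CS/CG ratio of 3.30 (3.17 to 3.44), opposite to F3H and F3'H. The chlorophyll a-b binding protein gene Glyma16g28030 given above was also higher in CS, with a ratio of 3.89 (3.85 to 3.93). Its part in the differences of the anthocyanin genes was not tested, and with pooled tissue fewer cells of a type and less RNA per cell cannot be told apart.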

How the data were processed

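Young shoot tips of CS and CG were sequenced by RNA-Seq, 1 library each. The authors mapped 75-base reads with Bowtie (version not given in the sources used here) against the predicted soybean cDNAs (Glyma models, cultivar Williams 82). A read could carry mismatches and count on more than one model. The deposited unit is RPKM. Use of strand is not given in the sources used here.

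The member genes, gene lists and comparisons were chosen with earlier results of these data known. Log2 CS/CG ratios were taken with a pseudocount of 0.1 RPKM, which understates changes of low models, and counted past 2-fold where a model averaged at least 1 RPKM. No test was made between the lines. Whole alignments and model lengths of 75 bases or more were recovered from the steps in the RPKM values. A model's true length and alignments can be a multiple of the smallest ones that fit, as may hold for Glyma11g03010.1 and Glyma02g05470.1, and its counting interval is then too wide. Ratio intervals were Clopper-Pearson and level intervals exact Poisson, at 95%. Recovery of totals and alignments, the 2-fold calls and the ratio intervals were run on simulated data, with Poisson alignments drawn separately for each model. The simulation held no reads shared between models, so it cannot show how such reads affect the values.

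All member loci were named, with the neighbours directly beside a member that averaged at least 1 RPKM. Other neighbours named were chosen after their values were seen. Other pathway genes came from the study's tables, since the RefSeq table matched 0 Glyma identifiers. No sequences were used here. The alternatives were pseudocounts of 1 and 0.01, no filter, an average of at least 10 RPKM, the strongest model of each locus alone, median-centring of the ratios and equal 75th percentiles. Scripts ran in Python 3.11.15 with SciPy 1.17.1 for intervals, pandas 2.3.3 and NumPy 2.4.6 for tables, and matplotlib 3.10.9 for plots.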

Additional observations from a re-analysis of the deposited data

How the results depend on the processing

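The member models past 2-fold toward CG, 4 as reported, numbered 0 after median-centring and 0 with equal 75th percentiles, and stayed at 3 or 4 with the other alternatives. With a pseudocount of 1, Glyma16g23880.1 fell below 2-fold at a log2 CS/CG ratio of -0.97. The median log2 ratio of the members, -1.21 as reported, was -0.86 after median-centring, -0.88 with equal 75th percentiles and -0.22 with no filter, which brings in the 6 weak models. No member model was at least 2-fold higher in CS among those tested under any of these alternatives. Glyma17g37060.1, which was below the filter, had a log2 ratio of 0.74 as deposited, 1.01 after median-centring and 0.31 with a pseudocount of 1. Over all models, the number past 2-fold toward CS, 2438 as reported, was 4060 with no filter, 990 where models averaged at least 10 RPKM, 4087 after median-centring and 3984 with equal 75th percentiles. The number past it toward CG, 6073 as reported, was 1677 where models averaged at least 10 RPKM, 3661 after median-centring and 3758 with equal 75th percentiles. The share of weak models higher in CS, 39.4%, was 51.3% after median-centring and 50.7% with equal 75th percentiles, in alternatives chosen after seeing the data. No paired analysis was possible because CS and CG are single libraries, so that neither could be left out. The 5 to 140 alignments of the weak members set the limit for F3'5'H, DFR, ANS and ANR.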
